A study of Mus musculus with 9 samples.

Results

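The Toll-like receptors (TLRs) considered here were the 10 genes Tlr1, Tlr2, Tlr3, Tlr4, Tlr5, Tlr7, Tlr8, Tlr9, Tlr11 and Tlr13, taken as the probes annotated with exactly 1 of these symbols. Each had 1 such probe, so 10 of the 22180 genes with a single-symbol probe were members, and no filter on signal removed any. By the RefSeq annotation, Tlr7, Tlr8 and Tlr13 lie on chromosome X, Tlr5 on 1, Tlr2 on 3, Tlr4 on 4, Tlr1 on 5, Tlr3 on 8, Tlr9 on 9 and Tlr11 on 14. Levels are log2 intensities on single-channel microarrays, read in dendritic cells (DCs) sorted from the spleens of naive mice as CD11c-positive and MHC class II-positive cells, at a stated purity above 95%. The knockout group (3 samples) came from CD11c.Cre x C/EBPβ flox/flox mice, in which Cre recombinase under the CD11c promoter removes the loxP-flanked Cebpb gene. That gene encodes C/EBPβ, a basic leucine zipper transcription factor of myeloid cells. The control group (6 samples) was labelled C/EBPβ+/+, and the protocols name C57BL/6 and CD11c.Cre mice as sources without saying which control came from which. All 9 samples carry the strain label C57BL/6. The sources used here give neither age nor sex, nor whether animals were pooled. Nothing states that the samples are separate animals, so a p-value here sets a difference against a sample-to-sample spread that may be technical only.

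TLRs are membrane receptors of innate immunity that recognise microbial molecules through a leucine-rich ectodomain and signal through a cytoplasmic TIR domain. Members at the cell surface read bacterial lipids and proteins, while members in endosomes read nucleic acids and reach that compartment with the chaperone UNC93B1. In mouse spleen the receptors are divided among DC subsets, with Tlr3 and Tlr11 typical of the XCR1-positive cDC1, Tlr5 of the CD11b-positive cDC2, and Tlr7 and Tlr9 of plasmacytoid DCs. Signals pass through the adaptors MyD88 and TRIF to NF-κB and interferon regulatory factors. The design text gives the role of C/EBPβ in DC maturation and fate in the resting animal as the question of the comparison.

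Tlr8 was the 1 member with an adjusted p under 0.05 by limma in the knockout samples, with a probe 1.89-fold brighter than in controls. It passed in 2 of 9 fits that left out 1 sample, and Tlr5 missed the threshold (limma's adjusted p = 0.076). C/EBPβ is a DNA-binding factor, so the 250 bases before the annotated start of each member were read from RefSeq (GRCm38.p6). The letters TTGCNNAA, a C/EBP core, were searched on both strands. They were found in 9.56% of all 32851 such windows. Among the 8 members with a window (Tlr4 and Tlr7 had no entry), 2 held a match: Tlr8, on the opposite strand 29 to 22 bases before the start, and Tlr3, on the opposite strand 95 to 88 bases before it. The windows of Tlr8 (chrX:167264330-167264579, minus strand), Tlr3 (chr8:45410381-45410630, minus strand) and Tlr5 (chr1:182954538-182954787, plus strand) are shown. They are the member past the threshold, the other member with a match, and the member with the largest decrease. Capitals mark the bases that match the C/EBP letters.
Tlr8: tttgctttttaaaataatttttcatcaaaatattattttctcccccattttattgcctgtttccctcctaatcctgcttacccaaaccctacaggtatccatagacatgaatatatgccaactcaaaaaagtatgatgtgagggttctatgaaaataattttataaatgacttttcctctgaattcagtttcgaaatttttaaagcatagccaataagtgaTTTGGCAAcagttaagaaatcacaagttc
Tlr3: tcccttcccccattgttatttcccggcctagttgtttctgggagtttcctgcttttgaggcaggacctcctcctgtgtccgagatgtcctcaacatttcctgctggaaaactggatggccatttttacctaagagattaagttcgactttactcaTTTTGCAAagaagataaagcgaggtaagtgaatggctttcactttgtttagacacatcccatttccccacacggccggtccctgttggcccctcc
Tlr5: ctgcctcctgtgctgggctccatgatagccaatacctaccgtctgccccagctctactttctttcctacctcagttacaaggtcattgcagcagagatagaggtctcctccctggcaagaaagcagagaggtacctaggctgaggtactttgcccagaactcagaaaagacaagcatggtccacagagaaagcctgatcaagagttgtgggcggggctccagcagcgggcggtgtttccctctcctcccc
The Tlr5 window holds no match. A match is a run of letters and not a measured binding site. The letters GAGGAA, a core of the myeloid factor PU.1, lay in 23.3% of all windows on either strand and in 5 of the 8 members (Tlr1, Tlr8, Tlr9, Tlr11 and Tlr13). Members are counted here as genes, while the shares are of windows. The 8 members had 9 windows, as Tlr1 had 2, of which 1 held GAGGAA. The letters GAAA, any 2 bases and GAAA again, read by interferon regulatory factors, lay in 2.98% of all windows on either strand and in 1 member, Tlr11, 122 to 113 bases before the start. None of the 3 sets of letters overlapped another in these windows.

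Over all arrays the medians ranged from 5.49 to 5.56 and pairs of arrays correlated at 0.987 to 0.996 across probes, on the log2 scale of the deposited intensities. Cebpb had log2 intensities of 5.37, 5.60 and 5.42 in the knockouts, against 6.64 to 7.15 in the controls, and limma gave a difference of -1.35 (SE 0.11, adjusted p = 0.00074). The DC markers Itgax (12.10 to 12.18 in knockouts and 12.04 to 12.25 in controls), which encodes CD11c, and Flt3 (11.52 to 11.60 in knockouts and 11.39 to 11.61 in controls) were present in every sample. Of 22180 genes, 201 had an adjusted p under 0.05, which is 0.906%, with 0.415% higher and 0.491% lower in the knockout. The knockout and control values of a gene did not overlap in 7.39% of genes, with the knockout above in 2.52% and below in 4.88%.

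Of the 10 receptors, 1 rose (Tlr8) and 0 fell by limma at an adjusted p under 0.05, and at an unadjusted p under 0.05 the numbers were 2 and 1. That is 1 of 10 past the adjusted threshold against 0.906% of all genes, and 3 of 10 at the unadjusted p against 14.3% of all genes in either direction. In 3 of 10 the groups did not overlap (Tlr4 and Tlr8 with the knockout above, Tlr5 with the knockout below), against 7.39% of all genes. The median difference over the 10 was -0.0085, against -0.014 over all genes. In these bulk samples, fewer cells of a type and less RNA per cell cannot be told apart. Probes of different genes bind with different efficiency, so the level of no receptor is ranked against that of another.

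**Figure D1:**
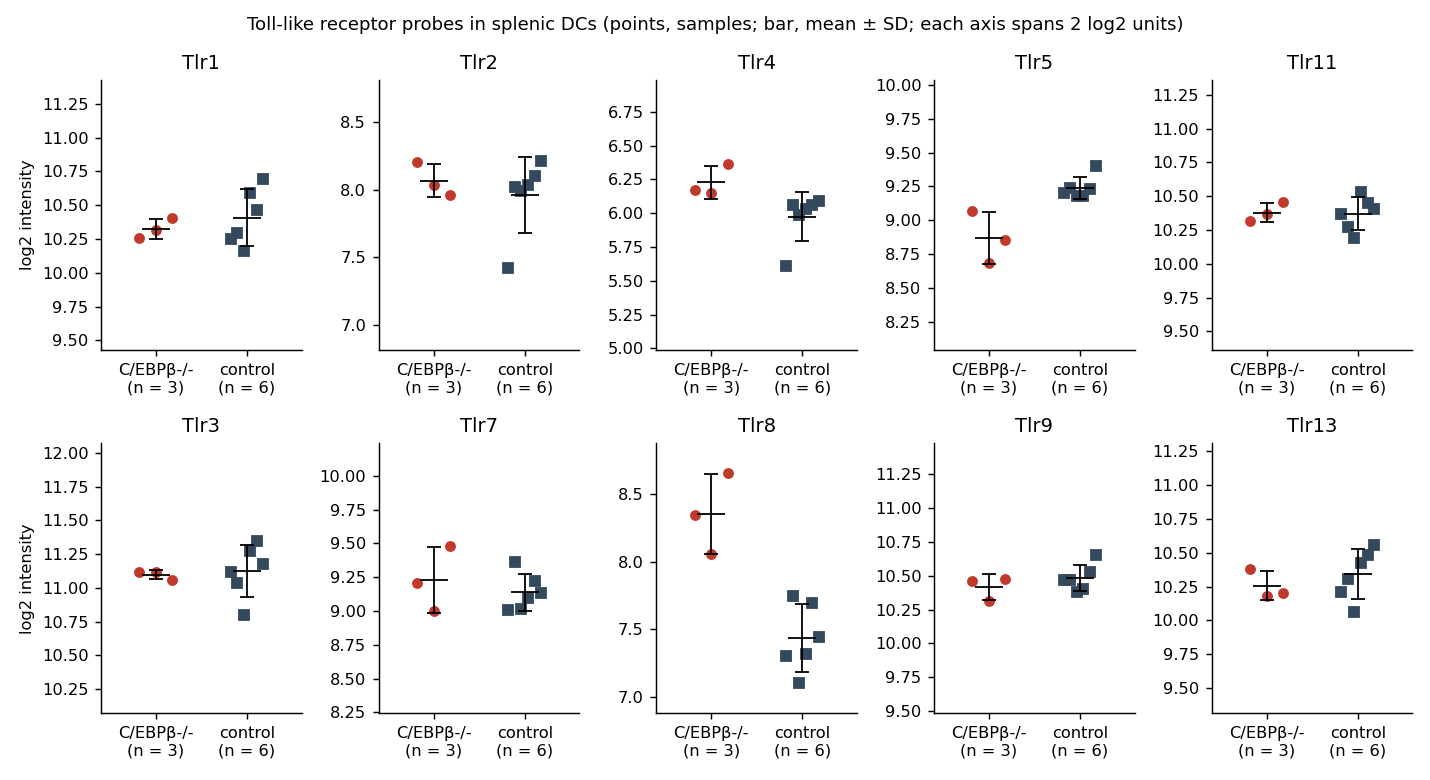
Log2 intensity of each receptor probe in C/EBPβ-/- samples (red circles, n = 3) and control samples (blue squares, n = 6), with the mean and SD as bars and every axis spanning the same range. The 3 knockout values lie above all controls for Tlr8 (8.06 to 8.65) and Tlr4 (6.15 to 6.36) and below all controls for Tlr5 (8.68 to 9.07).

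Among the receptors of bacterial lipids, none passed. Tlr2, which recognises lipoproteins as a heterodimer with Tlr1 or Tlr6, had log2 intensities of 8.20, 8.04 and 7.96 in the knockouts, against 7.42 at the lowest, 8.03 at the median and 8.21 at the highest in the controls. All knockout values lay within the control range, and the difference was 0.11 (95% confidence interval -0.22 to 0.43, limma's adjusted p = 0.81). Its lowest value came from control replicate 1, and the other 5 controls lay between 7.99 and 8.21.

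Tlr1, the partner of Tlr2 for triacylated lipoproteins, had log2 intensities of 10.25, 10.32 and 10.40 in the knockouts, against 10.16, 10.38 and 10.69 as the lowest, median and highest control. The groups overlapped, with a difference of -0.083 (95% confidence interval -0.33 to 0.17, limma's adjusted p = 0.81).

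Tlr4, the receptor for lipopolysaccharide, read 6.17, 6.15 and 6.36 in the knockouts, against 5.61 at the lowest, 6.04 at the median and 6.09 at the highest in the controls. All 3 knockouts lay above all 6 controls, the nearest being 6.15 in a knockout and 6.09 in a control. The difference of 0.25 (SE 0.11, 95% confidence interval 0.021 to 0.49) had an unadjusted p of 0.035 in limma and did not pass after adjustment (adjusted p = 0.31). Without control replicate 1, whose 5.61 stood apart from 5.99 to 6.09 in the other controls, the difference was 0.18 (adjusted p = 0.26). Both group means (6.23 in knockouts and 5.97 in controls) lay within the range read for 17 genes of other tissues, such as the liver gene Alb and the heart gene Tnni3, which averaged 2.58 to 7.26. That range is only a rough guide to background, since probes differ, and what part of the Tlr4 level is background was not tested. The means of the other 9 members lay above that range in both groups, with 1 Tlr8 control (7.10) within it.

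Tlr5 recognises flagellin, the protein of bacterial flagella. It read 9.07, 8.68 and 8.86 in the knockouts, against 9.18 at the lowest, 9.22 at the median and 9.40 at the highest in the controls. Every knockout lay below every control, and 5 of the controls spanned only 9.18 to 9.24. The difference was -0.37 (SE 0.085, 95% confidence interval -0.56 to -0.18), or 1.29-fold brighter in controls. It had an unadjusted p of 0.0012 and missed the threshold after adjustment by limma (adjusted p = 0.076). It passed in limma when genes with a mean below 5 were left out (adjusted p = 0.049) and when arrays were weighted by quality (adjusted p = 0.026). Leaving out knockout replicate 1 gave -0.47 (adjusted p = 0.029). Without knockout replicate 2 the difference was -0.28 (adjusted p = 0.24). Beside it, 8 cDC2 markers had a median difference of -0.19, and 2 of the 8 had a positive difference. The knockout lay above all controls in 1 and below in 2, against 2.52% and 4.88% of all genes. The 2 below were Dtx1 and Clec4a4 (-0.30, limma's adjusted p = 0.12). By limma 1 marker was higher and 1 lower, against 0.415% and 0.491% of all genes. The higher one was Cd209a, a lectin receptor of DCs, at 11.70 ± 0.17 (SD, n = 3) in knockouts and 11.16 ± 0.16 (SD, n = 6) in controls (limma's adjusted p = 0.046). The lower one was Dtx1, a target of Notch signalling, at 9.55 ± 0.12 (SD, n = 3) in knockouts and 10.0 ± 0.073 (SD, n = 6) in controls. With each gene set to 0 at its control mean, the cDC2 markers averaged 0.087, -0.11 and -0.24 in knockout replicates 1 to 3, where Tlr5 stood at -0.17, -0.56 and -0.38, and -0.11 to 0.13 in the controls. The part of subset composition in the Tlr5 values was not tested.

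Tlr11 responds to profilin of apicomplexan parasites. It read 10.31, 10.37 and 10.46 in the knockouts, against 10.19, 10.39 and 10.53 as the lowest, median and highest control. The difference was 0.0088 (95% confidence interval -0.16 to 0.18, limma's adjusted p = 0.98), and as a fold, knockout over control, the interval ran from 0.892 to 1.13.

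Of the 5 nucleic acid sensors, 1 passed by limma (Tlr8). Tlr3, which binds double-stranded RNA and signals through TRIF, read 11.12, 11.12 and 11.06 in the knockouts, against 10.80 at the lowest, 11.15 at the median and 11.35 at the highest in the controls. The knockouts lay within the control range. The difference was -0.026 (95% confidence interval -0.26 to 0.21, limma's adjusted p = 0.95). Beside Tlr3 and Tlr11, the 7 cDC1 markers averaged -0.14, 0.14 and -0.089 in the 3 knockouts on the same scale, and -0.15 to 0.18 in the controls. Their median difference was -0.10, and only 1 of the 7 had a positive difference (Itgae, 0.51). By limma 0 passed, with 1 higher and 2 lower at an unadjusted p under 0.05, against 14.3% of all genes in either direction.

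Tlr9, the receptor for unmethylated CpG DNA, read 10.46, 10.31 and 10.48 in the knockouts, against 10.38, 10.47 and 10.65 as the lowest, median and highest control. The difference was -0.066 (95% confidence interval -0.23 to 0.095, limma's adjusted p = 0.75). The X-linked Tlr13, which reads bacterial 23S ribosomal RNA, gave 10.38, 10.18 and 10.21 in the knockouts, against 10.07, 10.37 and 10.56 as the lowest, median and highest control. It differed by -0.086 (95% confidence interval -0.32 to 0.15, limma's adjusted p = 0.78). Over the 7 members whose groups overlapped, the confidence intervals ran from -0.33 to 0.43 in all, so larger differences lay outside them.

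Tlr7 binds single-stranded RNA and lies next to Tlr8 on the X chromosome. It read 9.21, 9.001 and 9.48 in the knockouts, against 9.004 at the lowest, 9.11 at the median and 9.36 at the highest in the controls. Knockout replicate 3 lay above every control, replicate 2 just below every control and replicate 1 among them. The difference was 0.093 (95% confidence interval -0.15 to 0.33, limma's adjusted p = 0.77). Knockout replicate 3 also had the highest mean of the plasmacytoid DC markers (0.57 relative to the control mean, with 0.045 and 0.19 in knockout replicates 1 and 2 and -0.12 to 0.27 in the controls) and of the B cell markers (0.72, with 0.19 and -0.17 in the other knockouts and -0.052 to 0.12 in the controls). The part of plasmacytoid DCs and B cells in the Tlr7 values was not tested.

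Tlr8 is likewise a receptor for single-stranded RNA and its degradation products, and in mouse DCs it has been described as restraining Tlr7. It read 8.35, 8.06 and 8.65 in the knockouts, against 7.10 at the lowest, 7.38 at the median and 7.75 at the highest in the controls. Each knockout lay above each control. The mean was 8.35 ± 0.30 (SD, n = 3) in knockouts and 7.44 ± 0.25 (SD, n = 6) in controls. The difference was 0.92 (SE 0.16, 95% confidence interval 0.57 to 1.27), or 1.89-fold (1.48 to 2.40), with limma's adjusted p = 0.031. In the 9 fits that left out 1 sample the differences were 0.77 to 1.06, and without overlap their direction could not change. In 2 of these 9 fits the adjusted p stayed under 0.05 (without control replicate 2 or 5), and in the other 7 it lay between 0.052 and 0.080.

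**Figure D2:**
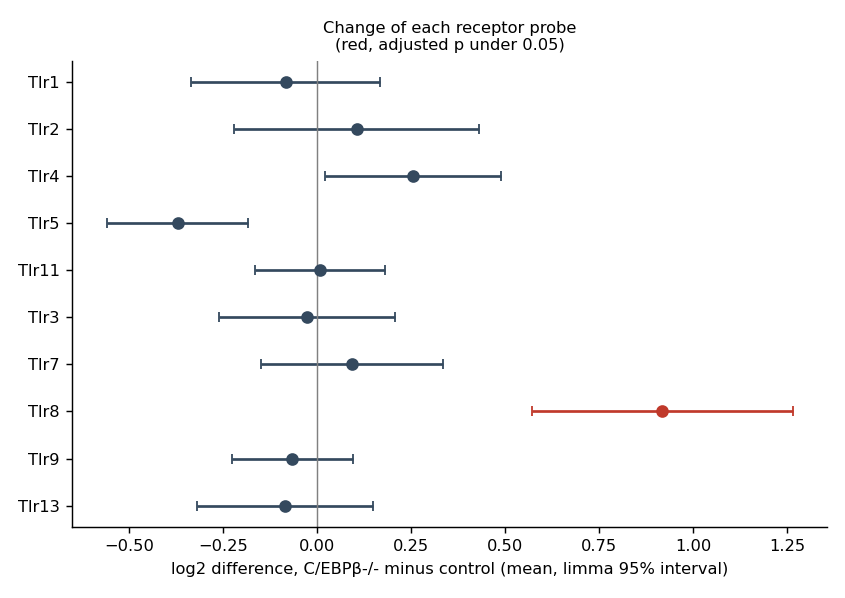
Log2 difference of each receptor probe, C/EBPβ-/- minus control, as the mean with limma's 95% confidence interval (3 against 6 samples). Tlr8 in red (0.92) has an adjusted p under 0.05, and Tlr5 (-0.37) and Tlr4 (0.25) have intervals that leave out 0 without passing after adjustment.

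A comparison of the adjacent genes, chosen after their values were seen, took Tlr8 minus Tlr7 within each sample. It was -0.86, -0.94 and -0.83 in the knockouts, against -1.91 at the lowest, -1.70 at the median and -1.53 at the highest in the controls. The groups did not overlap, and their means differed by 0.82. As the pair was picked for its values, no test is given, and the offset between the probes has no meaning of its own.

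Tlr6, the other partner of Tlr2, and Tlr12, a relative of Tlr11, also have 1 probe each but were not among the 10. Tlr6 differed by -0.073 (limma's adjusted p = 0.84) and Tlr12 by 0.0048 (adjusted p = 0.99), with overlapping groups.

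The profile of Tlr8 over the 9 samples was set against that of every other named gene, with each gene taken relative to its own control mean. Predicted genes, RIKEN clones, small RNAs, pseudogenes, olfactory receptors and immunoglobulin segments were left out. The measure was the root mean square difference, which is 0 for equal profiles and had a median of 0.60 over the remaining genes. The 5 nearest genes were Adgre4 (0.13), an adhesion receptor of myeloid cells, Fcgr2b (0.19), the inhibitory Fc gamma receptor, Fcgr4 (0.19), an activating Fc gamma receptor, Ace (0.20), the angiotensin-converting enzyme, and Klra2 (0.20), a lectin-like receptor. Nearness to a gene that differed between the groups favours other genes that differed, so these names describe the profile only. Among the other receptors the nearest to Tlr8 was Tlr4, at 0.43.

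Relative to the control mean, Tlr8 stood at 0.91, 0.63 and 1.22 in knockout replicates 1 to 3, and at -0.13, 0.31, -0.33, -0.12, 0.26 and 0.0082 in control replicates 1 to 6. Adgre4 stood at 0.75, 0.75 and 0.99 in the knockouts, and at -0.016, 0.32, -0.28, -0.21, 0.11 and 0.074 in the controls. Both genes were highest in knockout replicate 3 and, among controls, highest in replicate 2 and lowest in replicate 3. By limma, Adgre4 rose by 0.83 (SE 0.12, adjusted p = 0.020), Ace by 1.16 (SE 0.15, adjusted p = 0.0096) and Fcgr2b by 0.74 (SE 0.095, adjusted p = 0.0086). Fcgr4 differed by 0.78 (adjusted p = 0.076) and Klra2 by 0.82 (adjusted p = 0.13). The means of Klra2 (6.47 in knockouts and 5.66 in controls) lay within the range of the 17 genes of other tissues. Ace and Fcgr2b kept an adjusted p under 0.05 in all 9 fits that left out 1 sample, and Adgre4 missed it without knockout replicate 2 (adjusted p = 0.070) or 3 (adjusted p = 0.053).

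Ace and Adgre4 also stand in the list of non-classical monocyte markers, cells that can carry CD11c. Of its 6 measured genes, these 2 rose and 0 fell by limma (2 and 0 at an unadjusted p under 0.05), with a median difference of 0.18. Over all genes 0.415% rose and 14.3% had an unadjusted p under 0.05 in either direction, and both genes had already been named as nearest to Tlr8. The mean of this list was 0.35, 0.37 and 0.36 in knockout replicates 1 to 3, and -0.26 to 0.19 in the controls. That mean includes Ace and Adgre4, so its height in the knockouts is no separate result. The other 4 genes of the list, Treml4 (0.020), Eno3 (-0.20), Cd300e (0.24) and Nr4a1 (0.12), had overlapping groups.

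Of the red pulp macrophage markers, 0 of 13 passed by limma, and the median difference was 0.59. In this list 8 were higher and 0 lower at an unadjusted p under 0.05, against 14.3% of all genes in either direction. The list's mean was 0.22, 0.78 and 0.66 in knockout replicates 1 to 3, and -0.59 to 0.60 in the controls. Among the controls, replicate 2 was highest and replicate 3 lowest both in this mean (0.60 and -0.59) and in Tlr8 (0.31 and -0.33). Among the knockouts, replicate 1 had the lowest macrophage mean (0.22), with Tlr8 at 0.91, and replicate 2 the highest (0.78), with Tlr8 at 0.63. Classical monocyte markers had a mean of 0.010, -0.017 and 0.12 in the knockouts and -0.19 to 0.51 in the controls, and 0 of 7 passed by limma (1 higher and 0 lower at an unadjusted p under 0.05). In this list only Ly6c2 and Ccr2 had group means above the range of the 17 genes of other tissues. They differed by 0.39 (limma's adjusted p = 0.48) and 0.27 (adjusted p = 0.26), with overlapping groups. The other genes of the list lay within that range, so the list's mean rests largely on dim probes. The means of the neutrophil list (-0.017 to 0.12 in knockouts and -0.079 to 0.070 in controls) and of the T cell list (-0.061 to 0.077 in knockouts and -0.054 to 0.049 in controls) overlapped between groups, as did that of the NK cell list (-0.11 to 0.064 in knockouts and -0.11 to 0.12 in controls). Of the genes in these 3 lists, only Cd5 (-0.31, limma's adjusted p = 0.14) had group means above the range of the 17 genes of other tissues. The overlap of the list means thus says little about these cells. The parts of monocytes and macrophages in the Tlr8 difference were not tested.

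**Figure D3:**
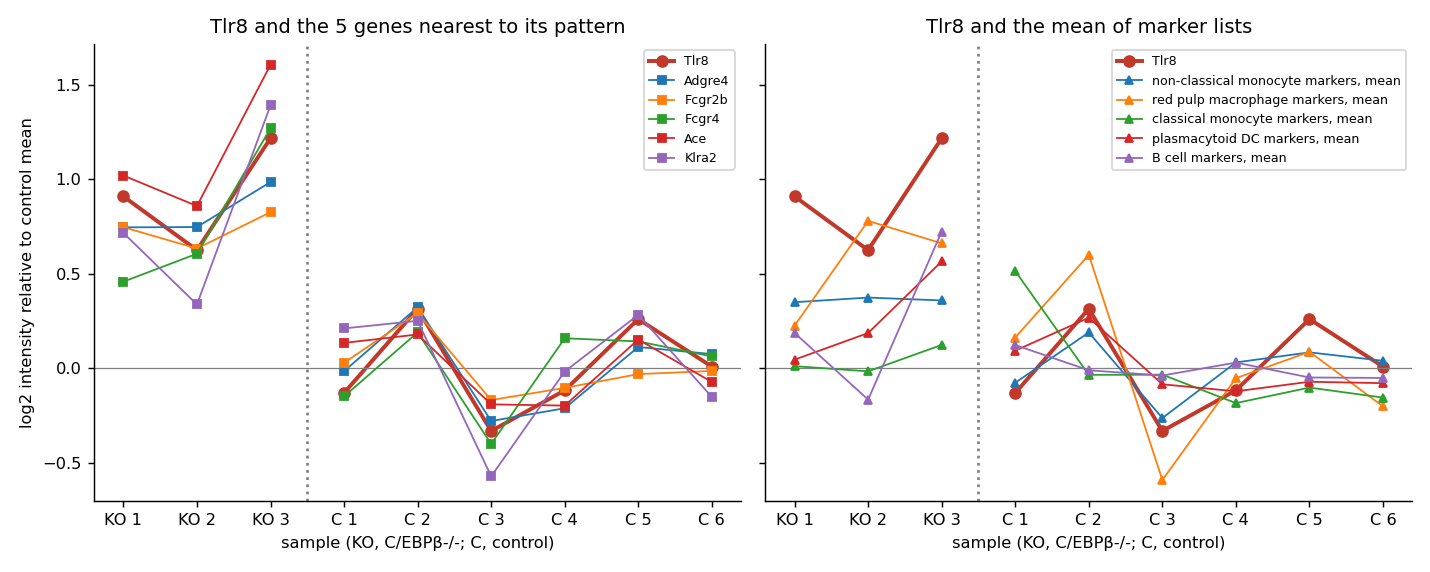
Log2 intensity relative to the control mean in C/EBPβ-/- samples (KO 1 to 3) and controls (C 1 to 6), for Tlr8 (thick red) with the 5 genes nearest to its profile on the left and with the means of 5 marker lists on the right. Tlr8 lies between 0.63 and 1.22 in the knockouts. The mean of the non-classical monocyte markers, which include Ace and Adgre4 of the left panel, lies between 0.35 and 0.37 there.

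Tlr7, Tlr8 and Tlr13 are X-linked, so sex-linked genes were read as well. Xist, the RNA that silences an X chromosome in female cells, read 11.2 to 11.3 in knockouts and 11.1 to 11.6 in controls. The Y-linked genes Eif2s3y (3.08 to 3.74 in knockouts and 2.99 to 3.17 in controls), Kdm5d (2.87 to 3.33 in knockouts and 2.93 to 3.40 in controls) and Uty (3.61 to 3.85 in knockouts and 3.52 to 4.07 in controls) read low in all 9 samples. Of these 4 genes, 0 passed by limma and 1 (Eif2s3y) was higher at an unadjusted p under 0.05.

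In the gene order of RefSeq, no gene lies between Tlr8 and Tlr7. Of the 20 measured genes around the pair, 10 on each side, 1 rose and 0 fell by limma, against 0.906% of all genes. The numbers were 2 and 5 at an unadjusted p under 0.05, against 14.3% of all genes in either direction. The gene past the threshold was Mid1, a ubiquitin ligase gene that spans the pseudoautosomal boundary in C57BL/6 mice. The brighter of its 2 probes differed by 2.37 (SE 0.095, limma's adjusted p = 1.6e-06). Of the 7 measured genes between Tlr7 and Mid1, 0 passed by limma, and 0 were higher and 2 lower at an unadjusted p under 0.05. The other neighbours differed by -0.48 to 0.39.

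**Figure D4:**
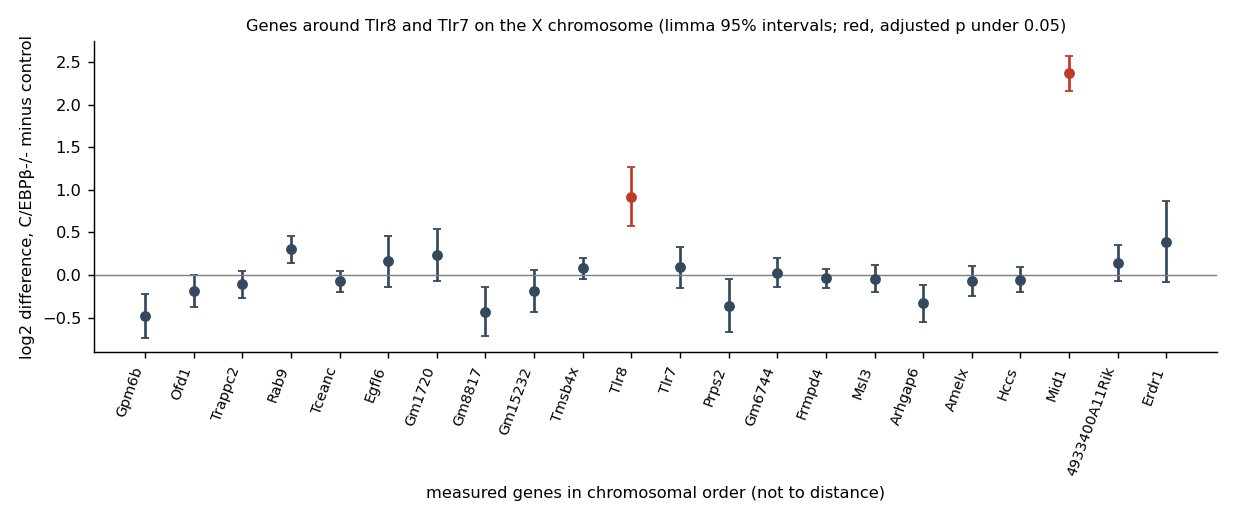
Log2 difference, C/EBPβ-/- minus control, with limma's 95% confidence interval for Tlr8, Tlr7 and the 10 measured genes on each side, in chromosomal order. Tlr8 (0.92) and Mid1 (2.37) have an adjusted p under 0.05, and the 7 genes between Tlr7 and Mid1 do not.

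The other genes of the pathway were read from 6 lists with 98 entries, of which 90 were measured. By limma 2 of the 90 rose (Lgmn and Socs3) and 0 fell, against 0.906% of all genes. At an unadjusted p under 0.05 the numbers were 26 and 5, against 14.3% of all genes in either direction. The groups did not overlap in 13, with the knockout above in 11 and below in 2, against 7.39% of all genes. The median difference was 0.033, against -0.014 over all genes.

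Accessory proteins of the surface receptors had 0 of 6 past the threshold by limma. Of the 6, 2 were higher and 0 lower at an unadjusted p under 0.05, against 14.3% of all genes in either direction. Cd14, which hands lipopolysaccharide to Tlr4, read 8.10, 8.24 and 7.44 in the knockouts, against 6.95 at the lowest, 7.29 at the median and 7.65 at the highest in the controls. Knockout replicate 3 lay within the control range, and the difference was 0.61 (SE 0.19, limma's adjusted p = 0.16). Ly96, which encodes the lipid-binding partner MD-2 of Tlr4, differed by 0.53 (SE 0.18, adjusted p = 0.19), with overlapping groups. Ly86 (0.033) and Cd180 (-0.12), which form a Tlr4-like complex on B cells and DCs, had smaller differences.

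For the endosomal receptors, 1 of 11 trafficking, cleavage and nucleic acid processing genes rose by limma and 0 fell, against 0.906% of all genes. Lgmn, the lysosomal endopeptidase legumain that can cleave Tlr9 into its signalling form, read 10.80, 10.81 and 10.77 in the knockouts, against 9.79 at the lowest, 9.85 at the median and 10.16 at the highest in the controls. The difference was 0.86 (SE 0.092, limma's adjusted p = 0.0042), and it passed in all 9 fits that left out 1 sample. Ctsl, cathepsin L, also lay above all controls, at 7.78, 7.82 and 7.85 in the knockouts and 7.18 to 7.68 in the controls, with a difference of 0.46 (adjusted p = 0.071). The chaperone genes Unc93b1 (-0.054), Hsp90b1 (-0.056) and Cnpy3 (-0.12) had overlapping groups. The median of the list was 0.018.

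Adaptors, kinases and transcription factors had 0 of 26 past the threshold by limma and a median of 0.015. Here 4 were higher and 1 lower at an unadjusted p under 0.05, against 14.3% of all genes in either direction. The kinase gene Irak2 read 9.58, 9.73 and 9.43 in the knockouts, against 9.24 to 9.40 in the controls, a difference of 0.27 (SE 0.071, adjusted p = 0.11). Map3k8, a kinase that links TLRs to ERK, differed by 0.31 (SE 0.090, adjusted p = 0.14), with overlapping groups. The negative regulators had 0 of 14 past the threshold by limma, 6 higher and 0 lower at an unadjusted p under 0.05, and 4 with the knockout above all controls, against 14.3% of all genes at that p in either direction and 2.52% with the knockout above. Atf3, a transcriptional repressor of TLR responses, differed by 0.56 (SE 0.11, adjusted p = 0.053), and Tank, an inhibitor of TRAF signalling, by 0.27 (SE 0.063, adjusted p = 0.076).

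Among cytosolic pattern receptors, 0 of 13 passed by limma, and the median was -0.13. Of these, 1 was higher and 4 lower at an unadjusted p under 0.05, against 14.3% of all genes in either direction. Ddx58, which encodes the RNA sensor RIG-I, read 8.59, 8.44 and 8.51 in the knockouts, against 8.75 at the lowest, 8.81 at the median and 8.95 at the highest in the controls. The groups did not overlap, and the difference of -0.31 (SE 0.063) had limma's adjusted p = 0.052. Nod2, a sensor of bacterial peptidoglycan, differed by 0.24 (adjusted p = 0.22).

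Genes that TLR ligands induce had 1 of 20 past the threshold by limma and higher, 10 higher and 0 lower at an unadjusted p under 0.05 (14.3% of all genes in either direction), and a median of 0.28. Socs3, a feedback inhibitor of cytokine signalling, read 7.47, 7.55 and 7.66 in the knockouts, against 6.97 at the lowest, 7.22 at the median and 7.24 at the highest in the controls. Its difference of 0.39 (SE 0.075) had limma's adjusted p = 0.046, and it passed in 1 of the 9 fits that left out 1 sample (without knockout replicate 1), with adjusted p between 0.056 and 0.15 in the other 8. With each array centred on its median it missed the threshold (adjusted p = 0.054). Cxcl10, a chemokine induced by interferon, read 9.22, 9.28 and 9.47 in the knockouts and 8.31 to 9.05 in the controls, a difference of 0.65 (SE 0.14, adjusted p = 0.066). The inflammatory cytokine genes Tnf (0.34), Il6 (0.49) and Il12b (0.29) had overlapping groups. The means of Il6 (5.93 in knockouts and 5.43 in controls) lay within the range of the 17 genes of other tissues, unlike those of Tnf and Il12b. So did the means of Il10, Il12a, Il23a, Cxcl2 and Ifnb1 of the same list, and the control mean of Socs3 (7.17). The mean of this list was 0.25, 0.35 and 0.21 in knockout replicates 1 to 3, and -0.12 to 0.12 in the controls. It was lowest in control replicate 1 and, among controls, highest in replicate 2, which had the highest macrophage mean of the controls (0.60); the part of macrophages in this list was not tested.

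**Figure D5:**
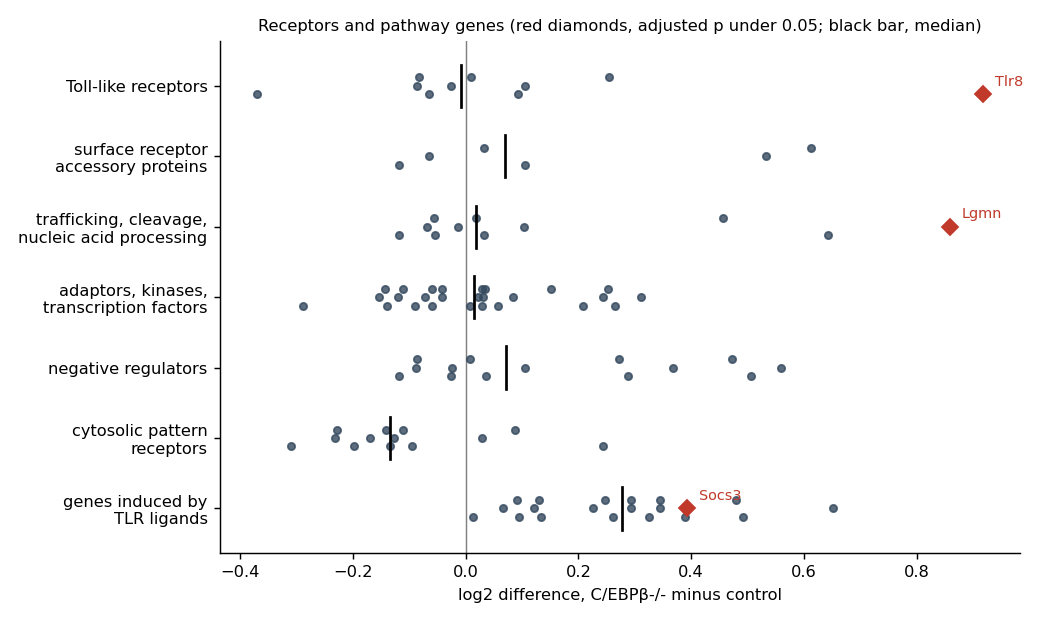
Log2 difference, C/EBPβ-/- minus control, of the 10 receptors and of the measured genes of 6 pathway lists (points, genes; black bar, median; red diamonds, adjusted p under 0.05). Tlr8, Lgmn and Socs3 pass, and the medians run from -0.13 for cytosolic receptors to 0.28 for genes induced by TLR ligands.

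The controls also differed among themselves. In 5 of the 10 receptors (Tlr1, Tlr2, Tlr3, Tlr11 and Tlr13) control replicates 4 to 6 were the 3 highest controls, and in 0 they were the 3 lowest, against 13.6% and 11% of all genes. The labels give no batch, so within-batch values cannot be given. Set against controls 1 to 3 alone, chosen after seeing the data, Tlr8 differed by 0.97 and Tlr5 by -0.34, and against controls 4 to 6 alone by 0.87 and -0.40. Tlr4 differed by 0.34 and 0.17 in the same pair of fits. None of these passed after limma's adjustment over all genes, with 3 knockouts against 3 controls (for Tlr8 adjusted p = 0.27 against controls 1 to 3 and 0.12 against controls 4 to 6). Tlr1, Tlr3 and Tlr13 were higher in the knockouts than in controls 1 to 3 (0.092, 0.12 and 0.063), with the opposite sign over all controls.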

How the data were processed

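Total RNA of sorted splenic DCs was hybridised to 1 single-channel array per sample after biotin labelling, per the labels' protocols. The authors deposited log2 intensities per transcript cluster (here called a probe), made with RMA per the submitters' processing notes. The RMA version and the genome build were not stated in the sources used here. RMA as commonly run includes quantile normalization, which removes a shift shared by most genes, and it compresses differences of dim probes. Precision is set by the small number of arrays.

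Of 41801 probe entries, 34468 had values in all samples, and the platform's annotation gave 1 symbol to 23521. The brightest probe stood for each of 1082 genes with several, which left 22180 genes without a filter on signal. Mid1, Socs3, Cd209a, Dtx1 and Nod2 had 2 such probes each, and the dimmer one is not given here. The 3 knockouts were set against the 6 controls with limma 3.58.1 in R 4.3.3 (two-sided, no covariate), with Benjamini-Hochberg adjustment over all genes and a threshold of 0.05. The steps were tested on simulated data.

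The members and lists were chosen with earlier results of these data known. Named were all members, Cebpb, of each pathway list the genes past the threshold and the 2 with the smallest p, the 5 genes nearest to a member past it, and X-linked neighbours past it. The other pathway and marker genes given by value (Ly86, Cd180, Unc93b1, Hsp90b1, Cnpy3, Tnf, Il6, Il12b, Cd209a, Dtx1, Clec4a4, Treml4, Eno3, Cd300e, Nr4a1, Itgax, Flt3, Xist, Eif2s3y, Kdm5d, Uty) were chosen after their values were seen. Itgae, Ly6c2, Ccr2 and Cd5 were likewise chosen after their values were seen. RefSeq (GRCm38.p6) supplied gene order and promoters.

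Same-numbered samples did not deviate together (correlations of -0.14, -0.10 and 0.047 for replicates 1, 2 and 3), so the numbers were not used as pairs. Over all pairs of a knockout and a control, the correlations ran from -0.23 (knockout replicate 3 with control replicate 4) to 0.20 (knockout replicate 3 with control replicate 2). Alternatives were other scalings, a signal filter, probe means, eBayes with trend, array weights, a replicate block, samples left out, and fewer controls.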

Additional observations from a re-analysis of the deposited data

Results flagged for a closer look

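Among 50 results with 6 control values, 4 held a control far from the other 5, and chance gives this in about 1 in 20. For Tlr2, control replicate 1 read 7.42, against 7.99 to 8.21 in the others. For Tlr4, control replicate 1 read 5.61, against 5.99 to 6.09 in the others. The mean of the classical monocyte markers was highest in the same sample, at 0.51 relative to the control mean, against -0.19 to -0.035 in the others. For Tlr5, control replicate 6 read 9.40, against 9.18 to 9.24 in the others.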

How the results depend on the processing

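Tlr8 kept its direction under all alternatives run, which for the fits on fewer samples followed from groups that did not overlap. Control replicates 4 to 6 have no knockout of the same number, so the replicate block gave the differences of controls 1 to 3 alone. The Tlr8 difference was 0.97 in both (limma's adjusted p = 0.41 with the block) and 0.87 against controls 4 to 6 alone, without passing. These choices of controls were made after seeing the data, with fewer samples. With 1 sample left out, the Tlr8 difference was 0.77 to 1.06. The other 7 alternatives kept an adjusted p of 0.019 to 0.031 for it. The number of members past the threshold was 1, and it was 2 with a mean log2 value of at least 5 and with array weights (Tlr5 added), 0 with the replicate block and with controls 1 to 3 or 4 to 6 alone, and 0 to 1 with 1 sample left out. Over all genes the number was 201, and 360 with the signal filter, 652 with array weights, 2 with the replicate block, 3 and 20 with controls 1 to 3 and 4 to 6 alone, and 33 (without knockout replicate 2) to 332 (without knockout replicate 1). With cyclic loess 278 genes passed, 168 of them higher, against 92 of 201. Small differences changed sign. With the replicate block, and with controls 1 to 3 alone, they were 0.092 for Tlr1, 0.12 for Tlr3, 0.063 for Tlr13 and 0.032 for Tlr6. With controls 4 to 6 alone they were -0.048 for Tlr2, -0.083 for Tlr11 and -0.21 for Tlr12, and with array weights -0.024 for Tlr7 and -0.019 for Tlr11. With 1 sample left out, ranges crossed 0 for Tlr2 (-0.0034 to 0.16), Tlr3 (-0.091 to 0.019), Tlr7 (-0.033 to 0.21), Tlr11 (-0.030 to 0.041), Tlr6 (-0.18 to 0.065) and Tlr12 (-0.10 to 0.076). Apart from the smaller number of samples or genes, the cause was not tested. Another background correction and a slide block were not run, as neither scanner signals nor slides were used here.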
